A study of Mus musculus with 29 samples.

Results

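The levels of 10 genes of the contractile machinery of the myometrium, the smooth muscle wall of the uterus, were followed in mouse uteri collected early in gestation. The genes were Acta2, Actg2, Des, Smtn, Myh11, Cnn1, Tagln, Myl9, Myl4 and Oxtr. A probe was taken when the gene name in the scanner file, or the present symbol of its accession, was one of these 10, which gave 17 of the 41174 non-control probes and 10 of the 27670 gene names on the array. The genes were chosen by their measured differences between exposures, with their levels on these same arrays in view, so those differences are given as descriptions. The changes between days come from the same arrays, so their calls too describe these arrays and are no independent support for the list.

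CD-1 female mice received corn oil (CON) or genistein, a plant isoflavone that binds estrogen receptors, at 50 mg/kg/day (GEN), in each case on postnatal days 1 to 5. Uteri were collected on gestation day (GD) 1.5 (3 CON and 4 GEN samples), GD3.5 (3 and 3), GD4.5 (4 and 4) and GD5.5 (4 and 4), and total RNA of each of the 29 samples was hybridised to its own single-colour Agilent array. The labels state neither age at mating nor that each sample was a separate animal, and p-values therefore cover only how far these samples spread. The whole uterus was used, and in such bulk RNA fewer smooth muscle cells and less RNA per cell cannot be told apart.

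Smooth muscle contracts when calcium activates myosin light chain kinase, which phosphorylates the regulatory light chain of myosin and lets the myosin heavy chain pull on actin filaments. Calponin, transgelin and smoothelin bind those filaments, desmin forms the intermediate filaments that tie the apparatus together, and the oxytocin receptor raises calcium in response to the hormone. Myometrium grows and is kept quiet through most of pregnancy, and it contracts at birth. Many smooth muscle genes are switched on by serum response factor with the coactivator myocardin, through a DNA motif named the CArG box.

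Levels are log2 intensities relative to the 75th percentile of the array's non-control spots, so a difference of 1 is a 2-fold difference in intensity. A level is compared only with levels of the same probe. A gene stands for its brightest probe, and it was called when the adjusted p of limma's test was under 0.05. All 10 genes passed the filter of at least 3 arrays well above background in every comparison. Of the 17 probes, 14 were well above background on all 29 arrays, and none had a saturated spot on any array. The exceptions were the Acta2 probe A_52_P644232 (18 arrays) and the Oxtr probes A_51_P328870 (26 arrays) and A_52_P430422 (23 arrays). The GD1.5 and GD3.5 arrays lay on slides 1 to 4 and the GD4.5 and GD5.5 arrays on slides 5 to 8. By scan date, slides 1 to 3 were read in scan 1, slide 4 in scan 2 and slides 5 to 8 in scan 3. Slide 4 held only the third GD3.5 CON sample, so that sample differs from the other GD3.5 arrays in slide and scan. Slides and scans change together between GD3.5 and GD4.5, and so levels before and after this change are given without a test. Slides 1 to 4 had 75th percentiles between 1490 and 1840 intensity units, and slides 5 to 8 between 734 and 995. Acta2 probe A_52_P420504 and the Des probe were each printed 10 times on every array, and their spots had a median SD within an array of 0.063 and 0.038.

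The probes decide what is being read, since several of these genes belong to families of near-identical proteins. Acta2 (smooth muscle alpha-actin) had 5 probes and Actg2 (enteric gamma-actin) had 1. Cross-hybridisation with other actins was not tested.

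Myl4 had 2 probes, which are shown because they are not independent readings. Capitals mark the 47 bases that they share.
Myl4 A_51_P413130: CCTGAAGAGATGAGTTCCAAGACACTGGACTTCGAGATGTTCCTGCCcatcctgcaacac
Myl4 A_52_P544523: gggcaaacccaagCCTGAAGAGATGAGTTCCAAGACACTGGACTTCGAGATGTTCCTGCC

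On mouse build mm7, the build of the array design, they lie at bases 104693162 to 104693532 and 104693149 to 104693519 of chromosome 11, on the forward strand. The brighter, A_52_P544523, stood for the gene.

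Windows of 250 bases before an annotated transcription start were found in RefSeq (build GRCm38.p6) for 7 of the 10 genes: Acta2, Des, Smtn, Cnn1, Myl9, Myl4 and Oxtr. A CArG box, CC and GG around 6 bases that are all A or T, reads the same on both strands. It was found in 1 of the 7 windows, that of Myl9, and in 1.467% of all 32851 windows of that length. With 5 of the 6 inner bases A or T, a looser motif that includes the first, it was found in 2 of the 7 windows, Acta2 and Myl9, and in 8.593% of all windows. Both windows are shown with these matches in capitals. Acta2 and Myl9 fell in CON on the last day, and so did Smtn, Myl4 and Oxtr, whose windows held no match. Des, which rose, and Cnn1, which was not called, also had windows without a match. A link between the motif and the falls was not tested. The full palindromic estrogen response element, GGTCA and TGACC around any 3 bases (the same on both strands), was in 0 of the 7 windows and in 0.0639% of all windows.
Acta2, chr19:34255374-34255623, reverse strand: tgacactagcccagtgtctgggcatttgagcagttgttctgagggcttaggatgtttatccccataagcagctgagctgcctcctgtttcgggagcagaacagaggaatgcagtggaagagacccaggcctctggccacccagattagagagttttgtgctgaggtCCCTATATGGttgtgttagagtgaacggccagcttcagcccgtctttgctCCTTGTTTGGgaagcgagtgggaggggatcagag
Myl9, chr2:156775214-156775463, forward strand: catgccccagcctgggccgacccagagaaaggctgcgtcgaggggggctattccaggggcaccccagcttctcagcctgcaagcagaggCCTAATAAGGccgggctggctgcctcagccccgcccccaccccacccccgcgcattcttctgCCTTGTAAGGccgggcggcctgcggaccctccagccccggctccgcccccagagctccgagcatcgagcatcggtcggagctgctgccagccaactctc

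The matches begin 84 and 34 bases before the end of the Acta2 window, and 161 and 99 bases before that of the Myl9 window. That end was taken as the start site. The bounds of the genes lie elsewhere, at 34255585 for Acta2 and 156775408 for Myl9, both inside the windows. Both Acta2 matches thus fall within the gene's bounds, and both Myl9 matches fall before the bound of Myl9. The windows of Myl4 and Oxtr lie wholly, and that of Cnn1 partly, inside the bounds of their genes. A match is a description of the letters in the window, and binding was not measured in this series.

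**Figure D1:**
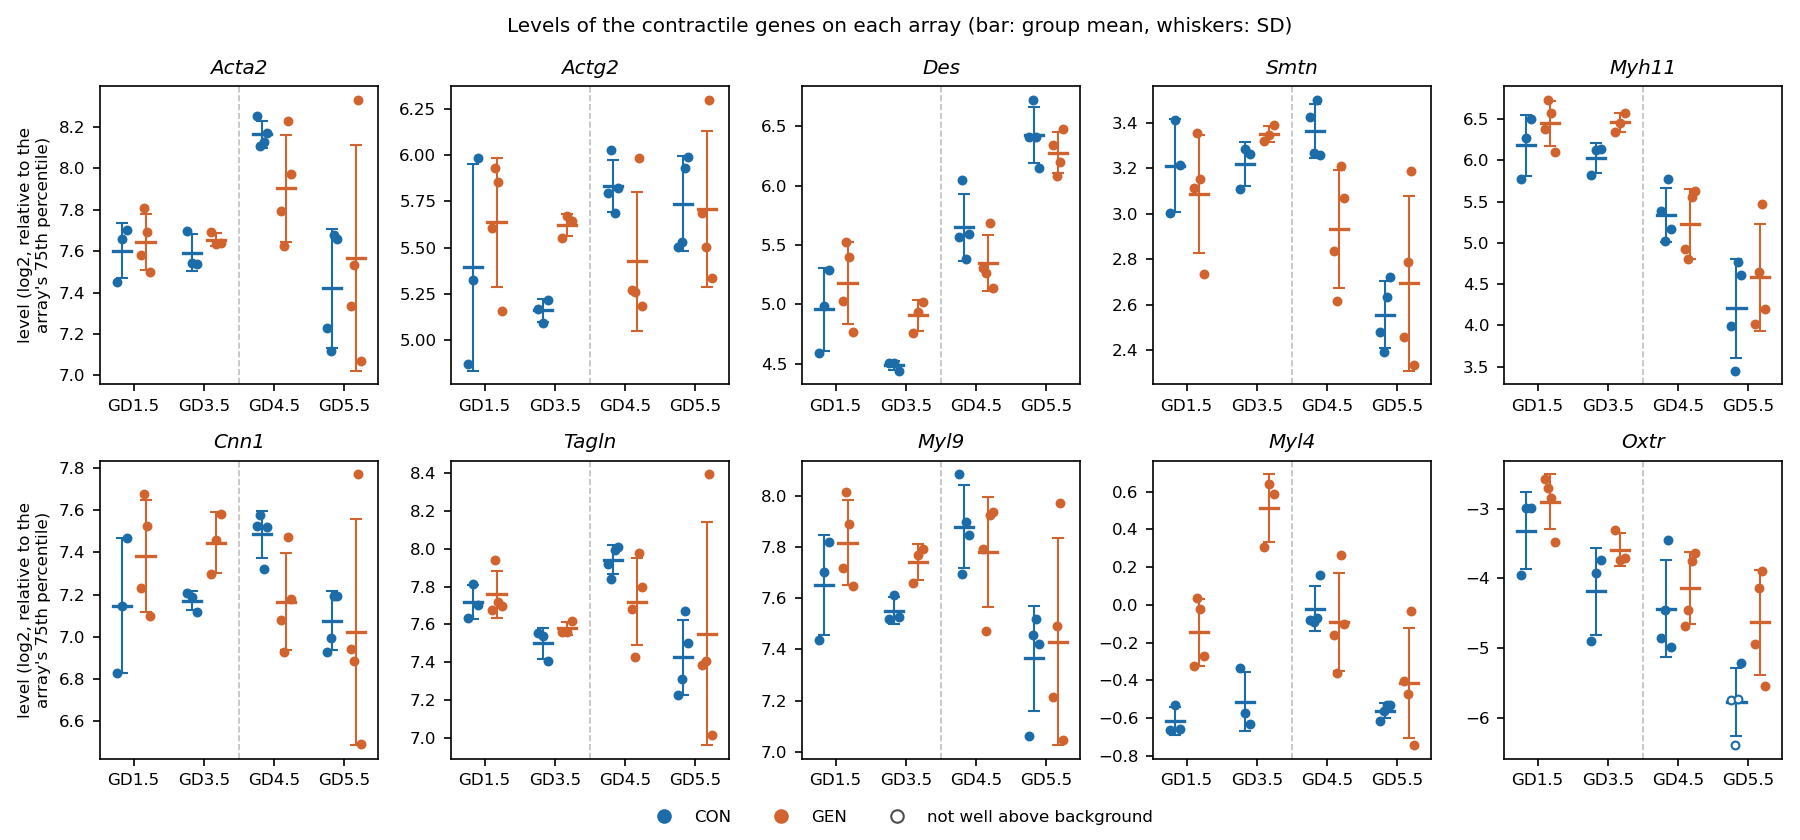
Level of each contractile gene on every array (log2, relative to the array's 75th percentile), by gestation day, with CON in blue and GEN in orange. Horizontal bars are group means, whiskers are SD, open points were not well above background, and the dashed line marks the change of slides. By brightest probe, the highest group mean was that of GD4.5 CON for 6 of the 10 genes, and the lowest was that of GD5.5 CON for 6. Acta2 and Tagln are among those highest in GD4.5 CON, but their other probes were highest in GD3.5 GEN or GD1.5 GEN. These orders cross the change of slides.

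Acta2 encodes the main actin of smooth muscle, and it fell on the last day in CON. Acta2 stood at 7.45, 7.66 and 7.70 on the 3 CON arrays of GD1.5 and at 7.69, 7.54 and 7.54 at GD3.5. On the 4 CON arrays of GD4.5 it was at 8.25, 8.11, 8.12 and 8.17, and at GD5.5 at 7.23, 7.12, 7.68 and 7.66. All 4 CON arrays of GD5.5 lay below all 4 of GD4.5. From GD4.5 to GD5.5 Acta2 thus fell by 0.74 in CON (SE 0.19, adjusted p = 0.00406 by limma), a 1.67-fold drop, and it was lower on each of the 4 slides that held both days, by log2 -1.01 to -0.51. The 4 Acta2 probes well above background on all arrays gave changes of -0.80 to -0.56.

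In GEN, Acta2 was at 7.79, 7.62, 8.23 and 7.97 at GD4.5 and at 7.34, 7.53, 8.33 and 7.07 at GD5.5. The third sample of each day was the highest of its group, and the groups overlapped. The change was -0.34 (SE 0.18, adjusted p = 0.191). Without the third GD5.5 GEN sample it was -0.59 (adjusted p = 0.00504). Between exposures Acta2 differed, by its brightest probe, by 0.042 at GD1.5, 0.064 at GD3.5, -0.26 at GD4.5 and 0.15 at GD5.5 (GEN minus CON, SE 0.18 to 0.21). Its other 4 probes gave 0.17 to 0.44 at GD3.5 (SE 0.22 to 0.65). Its dimmest probe, A_52_P644232, was above background on 1 of 4 CON and 3 of 4 GEN arrays at GD4.5, and there it gave a difference of 1.42 (SE 0.56) against -0.32 to -0.11 for the other 4 probes.

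Of the 10 genes, Actg2 had the smallest estimated change over the last days in CON. Its CON means were 5.83 ± 0.14 (SD, n = 4) at GD4.5 and 5.74 ± 0.26 (n = 4) at GD5.5, a change of -0.095 (SE 0.23, adjusted p = 0.811). At GD1.5 the 3 CON arrays were spread from 4.87 to 5.98, and the 4 GEN arrays, at 5.16 to 5.93, lay inside that span. At GD3.5 the exposures did not overlap, with CON at 5.17, 5.09 and 5.22 and GEN at 5.55, 5.67 and 5.64. That difference was 0.46 (95% interval -0.076 to 1.00). At GD4.5 the mean was lower in GEN by 0.41 (SE 0.23), with 3 GEN arrays at 5.19 to 5.27 and the third at 5.99.

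The myosins differed most from each other. Myh11 encodes the heavy chain of smooth muscle myosin, and its group means covered 2.25 log2 units. On CON arrays it was at 5.77, 6.27 and 6.50 at GD1.5 and at 5.82, 6.13 and 6.14 at GD3.5. It was at 5.39, 5.02, 5.77 and 5.16 at GD4.5 and at 4.00, 3.45, 4.77 and 4.61 at GD5.5. The 4 latest arrays were the lowest and overlapped no other CON group. Between these days in CON Myh11 fell by 1.13 (SE 0.29, adjusted p = 0.00528), a 2.19-fold drop, and by log2 -2.32 to -0.55 within the 4 slides. In GEN it was at 4.92, 4.81, 5.56 and 5.62 at GD4.5 and at 4.01, 4.65, 5.47 and 4.20 at GD5.5, which overlap. That change of -0.65 (SE 0.29) was not called (adjusted p = 0.111), and without the third GD5.5 GEN sample it was -0.94 (adjusted p = 0.0149).

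Myl9, the regulatory light chain that the kinase phosphorylates, kept its group means within 0.51 log2 units. Over the last days in CON it fell from 7.88 ± 0.16 to 7.37 ± 0.21 (SD, n = 4 and 4), by 0.51 (SE 0.16, adjusted p = 0.0153), with no overlap between the days. The call was lost without the first GD4.5 or the first GD5.5 CON sample (highest adjusted p = 0.0713) and with arrays scaled on their median (adjusted p = 0.0692). In GEN its change was -0.35 (SE 0.16, adjusted p = 0.107).

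Myl4, known as the atrial or embryonic essential light chain of striated muscle, had another pattern. At GD1.5 it was at -0.66, -0.53 and -0.66 in CON and at -0.32, 0.035, -0.024 and -0.27 in GEN. At GD3.5 it was at -0.33, -0.57 and -0.63 in CON and at 0.31, 0.64 and 0.59 in GEN. On both days every GEN array was above every CON array. The GEN to CON difference was 0.47 (SE 0.15) at GD1.5 and 1.02 (SE 0.16), or 2.03-fold, at GD3.5, and within slides it was 0.57 to 0.70 and 0.64 to 1.16. The overlapping second probe gave 0.41 and 0.94. The GD3.5 difference was called (adjusted p = 0.00549 by limma), but the call was lost with slide as a fixed block (0.91, adjusted p = 0.0923), with only the arrays compared (adjusted p = 0.0752) and without the GEN sample numbered 3 (0.96, adjusted p = 0.0618).

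At GD4.5 Myl4 was at -0.079, -0.089, -0.071 and 0.16 in CON and at -0.16, -0.36, 0.26 and -0.10 in GEN. At GD5.5 it was at -0.61, -0.56, -0.53 and -0.53 in CON and at -0.40, -0.47, -0.032 and -0.74 in GEN. The exposures overlapped on both days. The GEN to CON difference was -0.069 (SE 0.14) at GD4.5 and 0.15 (SE 0.14) at GD5.5. The GEN effect was thus 1.09 lower at GD4.5 than at GD3.5 (SE 0.21), which limma's test of that difference did not call after adjustment (adjusted p = 0.190) and which coincides with the change of slides.

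From GD1.5 to GD3.5 Myl4 rose in GEN by 0.66 (SE 0.15, adjusted p = 0.00875), and it rose on 3 of 3 slides that held both days, by 0.27 to 0.88. In CON the change was 0.10 (SE 0.16, adjusted p = 0.892). The difference between these 2 changes was 0.55 (SE 0.21) and was not called. Left without the GD3.5 GEN sample numbered 3 or 4, the rise in GEN was 0.59 (adjusted p = 0.0726) or 0.62 (adjusted p = 0.0630). Over the last days Myl4 fell in CON by 0.54 (SE 0.14, adjusted p = 0.00438), and in GEN its change was -0.32 (SE 0.14, adjusted p = 0.0861). In order of group means, GD3.5 GEN was the highest, and its lowest array (0.31) was above the highest of the next group, GD4.5 CON (0.16). No other pair of neighbours in that order was free of overlap.

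Smoothelin, calponin and transgelin bind the actin filament. Smtn (smoothelin) was at 3.43, 3.27, 3.501 and 3.26 on the CON arrays of GD4.5 and at 2.48, 2.39, 2.63 and 2.72 on those of GD5.5, with a wide gap between the days. It fell by 0.81 (SE 0.16, adjusted p = 6.55e-04), or 1.75-fold, and by log2 -1.11 to -0.54 within slides. The GEN arrays were at 2.84, 2.62, 3.21 and 3.07 at GD4.5, all below the lowest CON array, and at 2.46, 2.79, 3.19 and 2.33 at GD5.5. The GEN change was -0.24 (SE 0.16, adjusted p = 0.287), or -0.40 without the third GD5.5 GEN sample (adjusted p = 0.0469). The difference between the GEN and the CON change was 0.57 (SE 0.23), which was not called (adjusted p = 0.612).

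By their brightest probes, Cnn1 (calponin) and Tagln (transgelin, also called SM22) stayed within 0.46 and 0.52 log2 units over the 8 group means. The means of the second Tagln probe, A_52_P517683, ran more widely, from 6.45 (GD1.5 GEN) to 4.82 (GD5.5 CON), across the change of slides. In CON, Tagln fell from 7.94 ± 0.077 at GD4.5 to 7.43 ± 0.20 at GD5.5 (SD, n = 4 and 4), by 0.52 (SE 0.18, adjusted p = 0.0357), and its second probe gave -0.71. This call was lost when any of 5 of the 8 CON arrays of those days was left out (adjusted p = 0.0636 to 0.109), with slide as a fixed block (adjusted p = 0.0635) and with arrays scaled on their median (adjusted p = 0.121). The corresponding change of Cnn1 was -0.41 (SE 0.19), which was not called (adjusted p = 0.115), although its 4 CON arrays of GD5.5 lay below those of GD4.5. In GEN neither gene was called, with changes of -0.17 for Tagln and -0.14 for Cnn1.

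Des went the other way. Desmin is an intermediate filament protein of muscle that rodent decidual cells also make. On the CON arrays Des was at 4.59, 4.99 and 5.29 at GD1.5, at 4.51, 4.51 and 4.44 at GD3.5, at 5.57, 6.05, 5.38 and 5.59 at GD4.5, and at 6.41, 6.73, 6.41 and 6.15 at GD5.5. The GD5.5 arrays were above all others of CON. On the GEN arrays it was at 5.03, 5.53, 5.40 and 4.77 at GD1.5, at 4.76, 4.94 and 5.02 at GD3.5, at 5.31, 5.26, 5.69 and 5.14 at GD4.5, and at 6.35, 6.08, 6.20 and 6.48 at GD5.5.

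Des rose between the last 2 days in CON by 0.78 (SE 0.18, adjusted p = 0.00197) and in GEN by 0.93 (SE 0.18, adjusted p = 0.00122). It rose on 4 of 4 slides in CON, by 0.36 to 1.34, and on 2 of 2 in GEN, by 0.79 to 0.82. Des was the only one of the 10 genes called in both exposures. When only the GEN arrays of these days were fitted, the change in GEN kept its size and was not called (adjusted p = 0.0965), and 0 genes of the whole table were called in that fit. In the order of the group means of Des, GD5.5 CON and GD5.5 GEN overlapped, both lay above GD4.5 CON without overlap, and GD3.5 CON was the lowest, without overlap with GD3.5 GEN above it.

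Oxtr, the oxytocin receptor, was near the limit of detection. Its brighter probe was well above background on all arrays of 7 groups and on 1 of the 4 CON arrays of GD5.5, where it was at -5.74, -6.39, -5.73 and -5.22. At GD4.5 the CON arrays were at -4.85, -4.45, -3.44 and -4.99. All of the GD5.5 CON arrays were below these. Oxtr fell by 1.34 between GD4.5 and GD5.5 in CON (SE 0.38, adjusted p = 0.0104), or 2.53-fold in measured intensity, while its second probe gave -0.73 (SE 0.36). Without the third GD4.5 CON sample the fall was 1.01 (adjusted p = 0.0567), and with normexp background correction the change was -0.38 (adjusted p = 0.527).

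On the GEN arrays Oxtr was at -4.68, -4.46, -3.76 and -3.64 at GD4.5 and at -4.94, -4.14, -3.89 and -5.54 at GD5.5, with overlap. The change was -0.49 (SE 0.38, adjusted p = 0.367). At GD5.5 Oxtr was 1.14 higher in GEN than in CON (SE 0.38, 95% interval 0.35 to 1.93), which was not called (adjusted p = 0.589 by limma). The ranges overlapped, since the lowest GEN array was below the highest CON array. The second probe gave 0.68 (SE 0.36), and it was well above background on 1 of 4 CON and 2 of 4 GEN arrays. By the brighter probe the difference was 0.90 without the third GEN sample, and -0.32 to 2.25 within slides. The highest levels were at GD1.5, at -3.96, -3.00 and -2.99 in CON and at -2.58, -2.71, -2.85 and -3.47 in GEN. In the order of group means no neighbouring pair of Oxtr was free of overlap, nor of Acta2, Actg2, Cnn1 or Myl9.

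**Figure D2:**
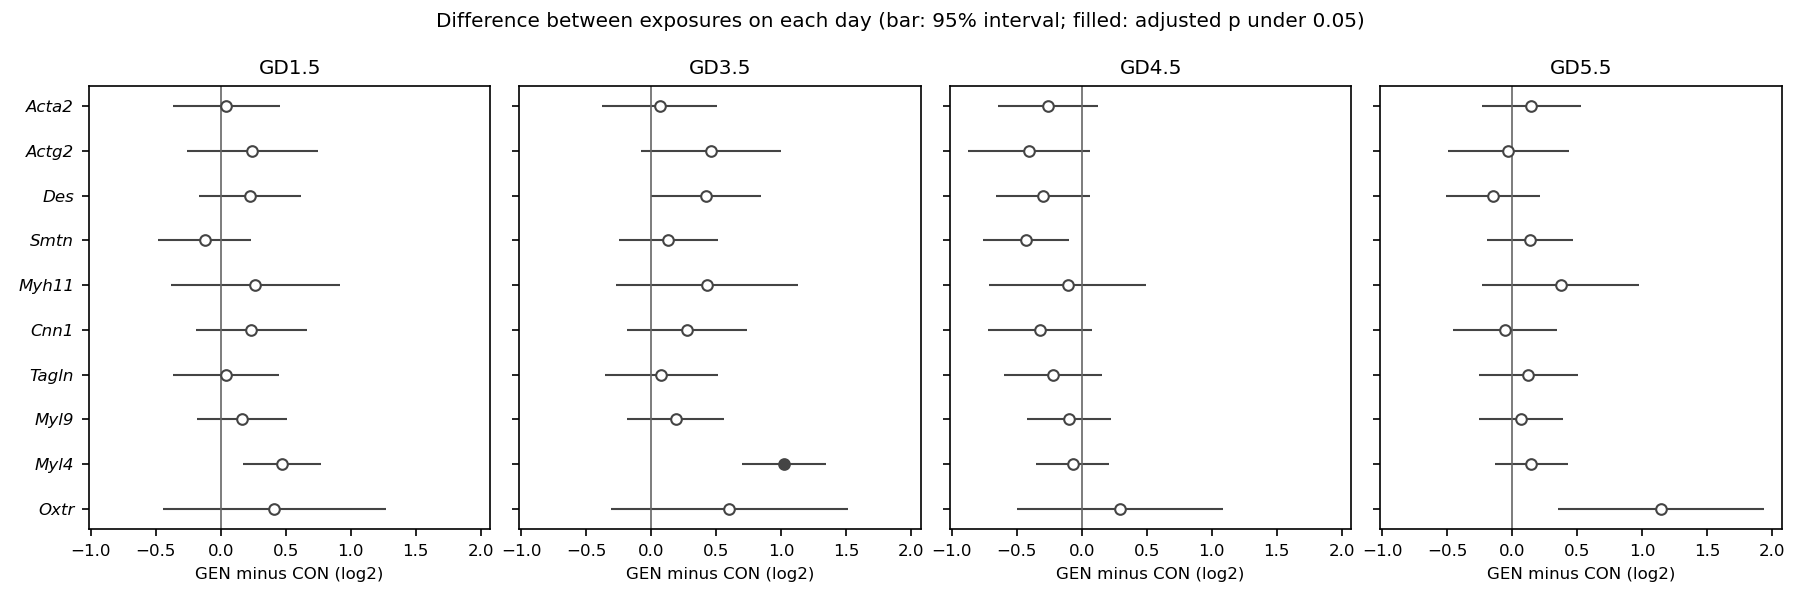
Difference between exposures (GEN minus CON, log2) for each gene on each day, with bars for the 95% interval and filled points for genes called at an adjusted p under 0.05. Points lie to the right of 0 for 9 of 10 genes at GD1.5 and 10 of 10 at GD3.5, and to the left for 9 of 10 at GD4.5, and Myl4 at GD3.5 was the single gene called.

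Most of the differences between exposures were positive at GD1.5 and GD3.5 and negative at GD4.5. At GD1.5, 9 genes were higher in GEN and 1 (Smtn) was lower, with a median difference of 0.23 against -0.011 over all 20504 genes tested. Without the first CON sample this median was 0.049, and without the third CON sample 0.39. The 8 adipocyte genes were all higher in GEN on that day, by a median of 2.41, with 0 called by limma (1 at an unadjusted p under 0.05). Their mean level was -4.43 to -1.78 in CON and -3.61 to 0.83 in GEN. Within groups that mean deviated against the contractile genes, with r = -0.64 over the 13 arrays of GD1.5 and GD3.5 and -0.25 over all 29. The part of the adipocyte genes in the result was not tested. None of the 10 was called by limma (1 at an unadjusted p under 0.05), beside 0.0975% of all genes (0.0244% higher and 0.0732% lower), and 1 (Myl4) had exposures that did not overlap, beside 8.33% of all genes. At GD3.5 all 10 were higher in GEN, with a median of 0.35 against -0.027 over all genes. There, 1 (Myl4) was called, beside 0.127% of all genes (0.0441% higher and 0.0833% lower). The call was lost with slide as a fixed block, with only the arrays compared or without the GEN sample numbered 3. By brightest probe 9 (all but Acta2) did not overlap, beside 20.3% of all genes. With other probes, Acta2 did not overlap by A_51_P450957 and A_52_P210078, but Tagln by A_52_P517683 and Oxtr by A_52_P430422 did.

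At GD4.5 the median was -0.24 against -0.036 over all genes, with 9 genes lower in GEN and Oxtr higher. None was called by limma (1 at an unadjusted p under 0.05), beside 0.120% of all genes (0.0185% higher and 0.102% lower), and 1 (Smtn, by -0.43, SE 0.16) did not overlap, beside 4.14%. At GD5.5, 7 genes were higher and 3 lower, with a median of 0.13 against -0.0055. Neither these 10 nor any other gene was called by limma (0%, with 1 of the 10 and 1147 of all 20828 genes at an unadjusted p under 0.05), and no contractile gene was free of overlap, beside 1.72% of all genes. Without the third GD5.5 GEN sample the GD5.5 median was -0.11, and with normexp background correction it was also -0.11. Since the genes were chosen with these differences known, nothing is read from these counts.

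Within slides that held both exposures, the median of the 10 differences was 0.17 and 0.77 on 2 slides at GD1.5 and 0.23 and 0.31 on 2 at GD3.5. It was -0.46 to 0.088 on 3 slides at GD4.5, with 1 of 3 positive, and -0.40 to 0.51 on 3 at GD5.5, with 2 of 3 positive. At GD1.5 these slides held only the GEN samples numbered 2 and 3, above their group mean by 0.25 and 0.11 (9 genes, without Oxtr). Those numbered 1 and 4 (-0.090 and -0.26) lay on slide 3, which held no CON array of that day. Slide 1 paired GEN sample 2 with CON sample 1, the lowest of its group (-0.26). The GD1.5 medians thus give no separate check of the direction. At GD3.5 both slide medians were positive, and on the later days the signs were mixed. The genes were chosen on these same arrays. Between successive days the GEN effect differed by a median of 0.17 (GD3.5 minus GD1.5, all 10 genes positive), -0.55 (GD4.5 minus GD3.5, all 10 negative) and 0.36 (GD5.5 minus GD4.5, all 10 positive). Successive differences share the arrays of a day and so are not independent, and limma called no contractile gene in any of them (1, 4 and 1 at an unadjusted p under 0.05), beside 0%, 0% and 0.00443% of all genes.

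**Figure D3:**
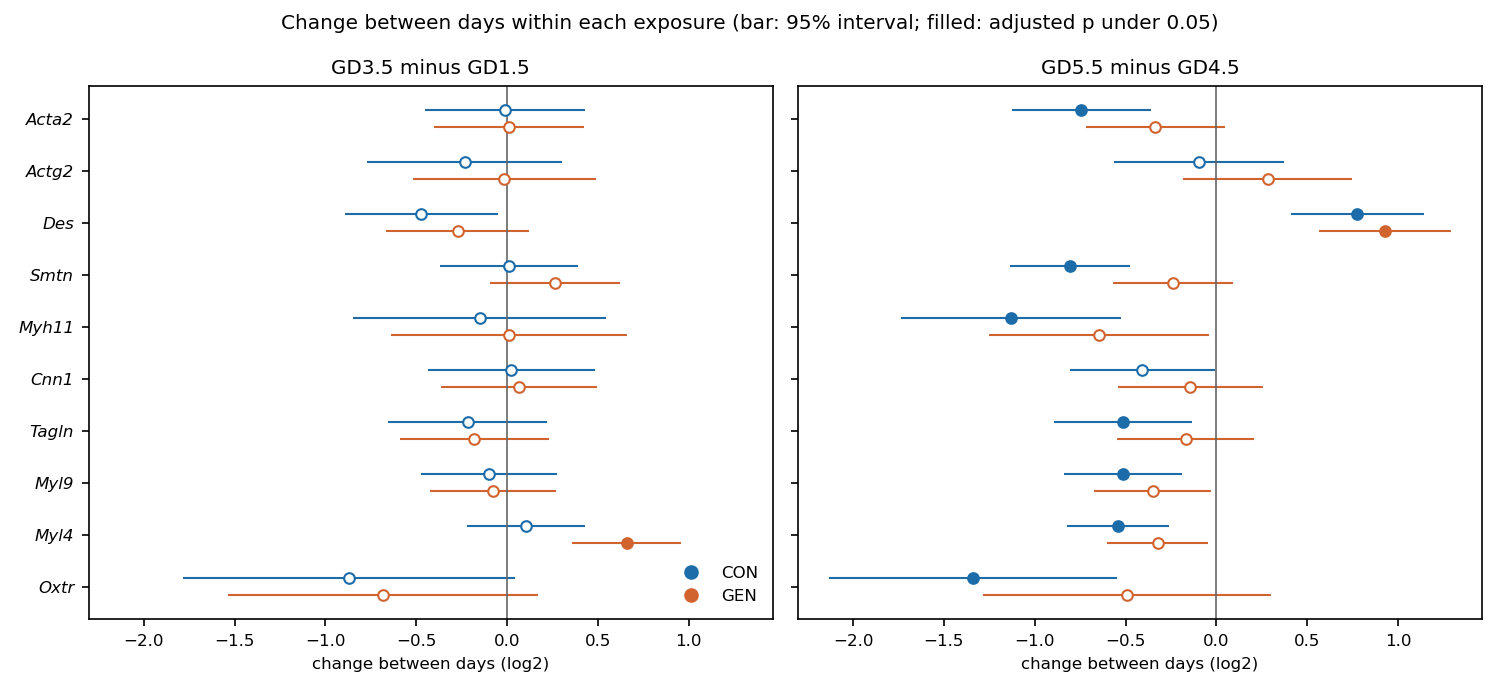
Change over the earlier pair of days (GD3.5 minus GD1.5) and the later pair (GD5.5 minus GD4.5) within CON (blue) and GEN (orange), in log2 units with 95% intervals, with filled points for genes called at an adjusted p under 0.05. Over the later pair 7 genes were called lower and Des higher in CON, and in GEN Des alone was called.

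Few contractile genes were called between GD1.5 and GD3.5. In CON 3 were higher and 7 lower, with a median change of -0.13 against 0.020 over all genes. None was called by limma (1 at an unadjusted p under 0.05), beside 2.54% of all genes (1.15% higher and 1.39% lower), and 2 (Des and Tagln) had days that did not overlap, beside 23.0%. The 2 widest estimates were those of Oxtr (-0.87, SE 0.44) and Des (-0.47, SE 0.20). In GEN 5 were higher and 5 lower, with a median of -0.0021 against 0.011, and 1 (Myl4) was called, beside 5.09% of all genes (2.59% higher and 2.50% lower). Here 2 (Myl4 and Tagln) did not overlap, beside 28.4%.

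Over the later pair of days 8 of the 10 were called in CON, beside 30.9% of the 21677 genes tested, and since the list was chosen with levels on these arrays in view nothing is read from that gap. Of these, 7 fell, beside 14.4% of genes called lower, and 1 rose, beside 16.5% called higher. The median change was -0.53 against 0.023 over all genes, and 9 genes had days that did not overlap (all but Actg2), beside 27.2%. The falls of the 6 genes well above background on all arrays ran from 0.51 for Myl9 to 1.13 for Myh11. Under the 12 alternative settings 6 to 9 of the contractile genes were called.

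In GEN over the same days 1 of the 10 was called (Des), beside 22.4% of 20938 genes (13.2% higher and 9.21% lower). The median was -0.28 against 0.085 over all genes, 8 genes had negative estimates, and 1 (Des) did not overlap, beside 14.3%. This count moved with the samples and settings used. Without the third GD5.5 GEN sample 7 were called (Des higher, and Acta2, Myh11, Myl4, Myl9, Smtn and Tagln lower), beside 27.7% of all genes in that fit, and without the third samples of both GD4.5 and GD5.5 it was 5, of which 4 fell. It was 3 without the second GD4.5 GEN sample, 7 with normexp and 0 with only the arrays compared. The difference between the exposures' changes was called for none of the 10, with a median of 0.36 and standard errors of 0.19 to 0.54.

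**Figure D4:**
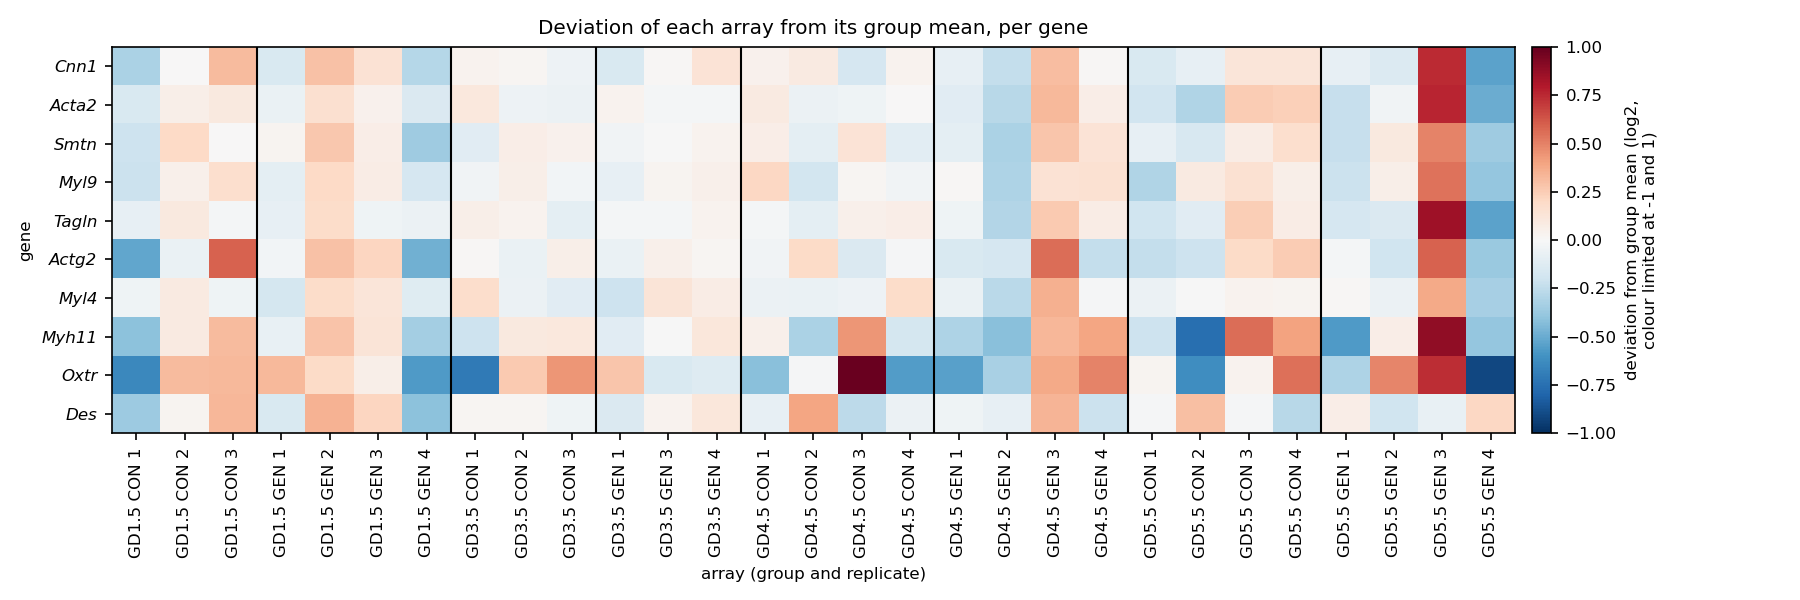
Deviation of each array from the mean of its group (log2, colours limited at -1 and 1), with genes in rows ordered by their correlation with the others and arrays in columns. The third GD5.5 GEN array is high for 9 of the 10 genes and the fourth is low for the same 9, and the row of Des follows the other genes more closely on the GD1.5 and GD3.5 arrays (r = 0.99) than on the later ones (r = -0.20).

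Within groups the genes moved together from sample to sample. After group means were removed, the deviation of Cnn1 correlated with the mean of the other genes (Oxtr left out of that mean, since 3 of its arrays were not above background) at r = 0.95 over 29 arrays. The values were 0.91 for Acta2, 0.87 for Smtn, 0.86 for Myl9, 0.85 for Tagln, 0.82 for Actg2, 0.75 for Myh11 and for Myl4, and 0.60 for Oxtr. Spearman's rho was 0.56 to 0.89 for these genes, and without the 2 arrays farthest from the median r was 0.48 to 0.91. Values of one array share its RNA and its scaling, so these correlations are descriptions.

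Des was tied to the others on some days only. Its r was 0.18 over all arrays (rho 0.24), 0.99 over the 13 arrays of GD1.5 and GD3.5, and -0.20 over the 16 arrays of GD4.5 and GD5.5. For Cnn1 the same values were 0.97 and 0.94, and for Acta2 0.84 and 0.98.

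Some arrays stood apart from their group. The mean deviation of 9 genes (without Oxtr) was 0.58 on the third GD5.5 GEN array, where 8 of the 9 were above their group mean, and -0.36 on the fourth, where 1 was. It was 0.32 on the third GD4.5 GEN array, with 9 of 9 above, and -0.26 on the second, with 0 of 9 above. At GD1.5 the first CON (-0.26) and the fourth GEN array (-0.26) had 0 of 9 above, and the second GEN array (0.25) had 9 of 9. At GD3.5 the arrays lay within -0.086 and 0.064.

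The 5 genes outside the list whose deviations followed the mean of the 9 most closely, among 16263 genes well above background on all arrays, were Tpm2 (r = 0.95), Pcp4l1 (0.92), Msrb3 (0.92), Hspb7 (0.92) and Ckb (0.91), against a median r of -0.074 over all. Tpm2 encodes the beta-tropomyosin of muscle filaments, Msrb3 a methionine sulfoxide reductase, Hspb7 a small heat shock protein of muscle and Ckb brain-type creatine kinase. The 5 were picked by likeness to the contractile genes on these same arrays, so their changes are descriptions and no separate support. All 5 fell in CON between GD4.5 and GD5.5, with changes from -0.50 (Tpm2, adjusted p = 0.0275) to -1.76 (Pcp4l1, adjusted p = 3.13e-05), beside 14.4% of all genes called lower. In GEN Pcp4l1 (-0.98) and Msrb3 (-0.49) fell, beside 9.21% of all genes, while Hspb7 (-0.69, adjusted p = 0.0707), Ckb (-0.58, adjusted p = 0.0732) and Tpm2 (-0.11, adjusted p = 0.659) were not called.

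**Figure D5:**
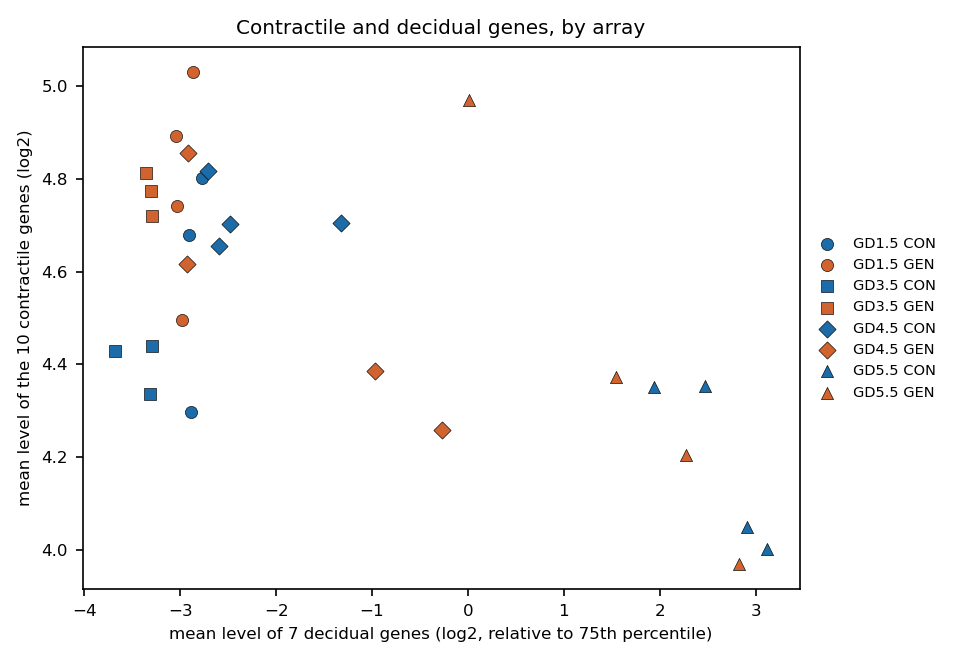
Mean level of the 10 contractile genes against the mean level of 7 decidual genes on each array (both log2, relative to the array's 75th percentile), by day (shape) and exposure (colour). At GD5.5 the third GEN array has the lowest decidual level, 0.0077, and the highest contractile level, 4.97.

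Genes of other cells of the uterus moved over the same days. Decidual genes (Bmp2, Prl8a2, Prl3c1, Cryab, Hand2, Wnt4 and Alpl), which mark the stromal cells that swell around an implanted embryo, averaged -2.71 to -1.32 on the CON arrays of GD4.5 and 1.94 to 3.12 at GD5.5. All 7 of 7 rose in CON by limma's test, by a median of 3.95, and 6 of 7 in GEN, by a median of 2.93. In GEN their mean was -2.93 to -0.27 at GD4.5 and 0.0077 to 2.83 at GD5.5. Prl8a2 was well above background on 12 and Prl3c1 on 10 of the 29 arrays.

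Within groups, the decidual mean and the contractile mean deviated in opposite directions, with r = -0.71 and rho = -0.59 over 29 arrays and r = -0.56 without the 2 farthest. The relation was in the later arrays, with r = -0.85 over the 16 arrays of GD4.5 and GD5.5 (-0.81 without the third GD5.5 GEN array) and 0.27 over the 13 earlier ones. Its part in the changes of the contractile genes was not tested.

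Skeletal muscle genes (Acta1, Ckm, Myh4, Mylpf, Tnnt3 and Tnni2) deviated with the contractile genes, with r = 0.67 over 29 arrays, 0.49 without the 2 farthest, 0.85 over the later 16 and 0.25 over the 13 earlier ones. Their mean was -0.094 to 0.29 in GD4.5 CON, -0.99 to 0.17 in GD4.5 GEN, -0.69 to -0.28 in GD5.5 CON and -0.94 to -0.15 in GD5.5 GEN, and Myh4 was well above background on 24 arrays. For heart muscle genes r was 0.11, and the heart myosin Myh6 was well above background on 20 arrays. Over all 29, the later 16 and the 13 earlier arrays, r was 0.39, 0.62 and -0.73 for epithelial genes. For vessel wall and pericyte genes it was 0.47, 0.58 and 0.059, and for stromal genes 0.32, 0.40 and 0.0091. Endothelial genes gave 0.038, -0.20 and 0.45, and adipocyte genes -0.25, -0.097 and -0.64. Epithelial genes fell over GD4.5 to GD5.5 in CON for 5 of 9 and in GEN for 3 of 9, with means of 2.59 to 3.33 and 1.36 to 3.56 at GD4.5 and of 1.51 to 1.67 and 1.09 to 2.25 at GD5.5. Vessel wall and pericyte genes fell for 3 of 7 in CON and 5 of 7 in GEN. Stromal genes rose for 3 of 8 and fell for 3 of 8 in CON, endothelial genes for 2 and 2 of 8, and adipocyte genes for 0 of 7 either way by limma (0 at an unadjusted p under 0.05). In GEN 0 of 8 stromal genes rose and 2 fell, and 0 of 8 endothelial genes rose and 3 fell. These counts stand beside 16.5% of all genes called higher and 14.4% lower in CON, and 13.2% and 9.21% in GEN. Only in CON are the endothelial counts near those shares. The part of any of these cells in the contractile result was not tested.

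The wider contractile pathway was described with 5 lists. Their counts from GD4.5 to GD5.5 stand beside 16.5% of all genes called higher and 14.4% lower in CON, and 13.2% higher and 9.21% lower in GEN. None of their genes was called between exposures on any day by limma, with 0 to 8 genes of a list at an unadjusted p under 0.05. In the list for calcium, kinase and phosphatase control of contraction 12 of 20 genes fell and 1 rose from GD4.5 to GD5.5 in CON, with a median of -0.91. They included phospholamban (Pln, -1.86, SE 0.39, adjusted p = 0.00108), the cGMP phosphodiesterase Pde5a (-1.61, SE 0.28, adjusted p = 2.04e-04), the cGMP-dependent kinase Prkg1 (-1.42, SE 0.25, adjusted p = 2.00e-04) and the junctional protein Jph2 (-1.28, SE 0.26, adjusted p = 7.50e-04). In GEN 8 fell and 1 rose, with a median of -0.63, and Pln (-1.32), Pde5a (-1.13) and Prkg1 (-0.80) were among those that fell. From GD1.5 to GD3.5 none of the 20 was called by limma in either exposure (0 at an unadjusted p under 0.05 in each).

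Partners of the filaments were split in direction, and the 3 of 30 that fell in GEN are near the share of all genes. Of 30 genes tested, 9 fell and 7 rose between GD4.5 and GD5.5 in CON, with a median of -0.096, and in GEN 3 fell and 6 rose. The largest falls in CON were in the sarcoglycan Sgca (-1.53, adjusted p = 0.00574), the actin-binding Synpo2 (-1.44, adjusted p = 4.71e-04), leiomodin (Lmod1, -1.18, adjusted p = 0.00226) and myosin light chain kinase (Mylk, -1.07, adjusted p = 7.50e-04), which the calcium list also holds. In GEN Synpo2 (-0.96) and Mylk (-0.62) fell as well.

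Among 17 contraction-associated genes of the uterus, 5 fell and 1 rose between GD4.5 and GD5.5 in CON, and 4 of 16 fell and 1 rose in GEN. Of all genes, 14.4% were called lower and 16.5% higher in CON, and 9.21% lower and 13.2% higher in GEN. In both exposures falls were thus a larger part, and rises a smaller part, of this list than of all genes. Ptger3, a receptor for prostaglandin E2, fell by 2.38 in CON (SE 0.39, adjusted p = 1.12e-04) and by 1.49 in GEN (adjusted p = 0.0103), and the prostaglandin F receptor Ptgfr fell by 1.40 in each (adjusted p = 5.74e-04 and 0.00149). Gja1, the gap junction protein connexin 43 that couples muscle cells and that decidual cells also make, rose by 1.72 in CON (SE 0.41, adjusted p = 0.00305) and by 1.35 in GEN (adjusted p = 0.0229). From GD1.5 to GD3.5 the epithelial connexin Gjb2 fell by 4.78 in CON (SE 0.80, adjusted p = 0.00124) and by 2.65 in GEN (adjusted p = 0.0386).

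Of 14 transcription factors of the smooth muscle program, 3 rose and 2 fell between GD4.5 and GD5.5 in CON, and 1 rose and 2 fell in GEN, counts near the shares of all genes. Gata6 fell in both (-1.02 and -0.98), the coactivator Mrtfb rose in both (0.91 and 0.96), Tead1 rose in CON (0.94, adjusted p = 0.00187) and the estrogen receptor Esr1 fell in GEN (-0.79, adjusted p = 0.00305). Of 29 striated muscle and other myosin genes, 4 rose and 6 fell in CON, and of 28 in GEN 4 rose and 2 fell, again near the shares of all genes. They included the troponin Tnnc1, which rose by 3.12 in CON and 2.17 in GEN, and the developmental myosin Myh8, which fell by 1.19 and 1.45. Myl1 rose by 1.67 in CON, where it was above background on 2 of 4 arrays at GD4.5. Mb fell by 2.47 in CON from GD1.5 to GD3.5, where it was above background on 1 of 3 arrays.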

How the data were processed

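Uterine RNA was measured on 29 single-colour (Cy3) Agilent arrays, labelled from 500 ng of total RNA per the labels' protocols. Per the file headers, the deposited scanner files hold each spot's processed green intensity from Feature Extraction 9.5, also named in the submitters' processing notes, and the authors' deposited value matrix holds the same intensity (largest difference 0%, with 0 per-sample columns left unused). Exposure, day and number were taken from the titles.

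Here log2 intensities were taken, less the 75th percentile of the array's 43379 non-control spots. Spots marked as outliers by the scanner were set to missing (4 of Acta2, 16 of Des), and repeat spots were averaged by probe. Names were assigned from RefSeq through the probe's accession (22951 probes), symbol (6659) or synonym (3109), or from the scanner file (8455). Of the genes, 8914 had more than 1 probe, and the brightest stood for the gene. Group means of all 29 arrays were fitted with limma 3.58.1 (R 4.3.3, statmod 1.5.0, package data.table, version 1.17.8), with Benjamini-Hochberg adjustment over the genes that 3 or more of the compared arrays showed well above background. The fit was tested on simulated data. The number of arrays limits the precision.

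The 10 genes, the lists and the tests were chosen with earlier results of these data known. Named were all 10 genes with every probe, the 4 largest called changes of each pathway list, and the 5 genes whose deviations were most like theirs. Alternatives were normexp correction, quantile and percentile 50 scaling, other filters, the mean over probes, slide as fixed or random block, a replicate block, only the arrays compared, a variance trend with robust fit, and each array left out. Leaving out both GEN samples numbered 3 of GD4.5 and GD5.5 was added after the data were seen. Same-numbered samples deviated together between exposures at GD5.5 (r = 0.33 to 0.43 over 16263 genes in 4 of 4 pairs), and in the other comparisons not every pair did. The labels do not say what the number marks. Coordinates of probes are on mm7. Of the probes of the 10 genes, only those of Myl4 are printed, and one other sequence is not reported here.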

Additional observations from a re-analysis of the deposited data

Results flagged for a closer look

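In groups of 4 arrays, 55 combinations of gene (or the mean deviation of 9 genes) and group were searched for a sample far from the rest, and 3 were found. Chance gives about 1 in 20. Tagln stood at 7.94 on the second GD1.5 GEN array, against 7.72 or less on the other 3. Actg2 stood at 5.99 on the third GD4.5 GEN array, against 5.27 or less on the others, and this array was also high for the other contractile genes. Myl4 stood at 0.16 on the fourth GD4.5 CON array, against -0.071 or less on the others.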

How the results depend on the processing

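The medians and the counts of called contractile genes were recomputed under 12 other settings and without each of the 29 arrays in turn. Of 192 values under other settings, 183 stayed within the spread between arrays or within 1.5 times the count, and those with a replicate block were among them: with the replicate number as a block, the CON count between GD4.5 and GD5.5 was 8 and the GEN count 1, as without it. At GD3.5 the exposure median of the contractile genes was 0.24 with slide as a fixed block, and 0 of them were called with that block (Myl4, adjusted p = 0.0923) or with only the arrays compared (Myl4, adjusted p = 0.0752). At GD5.5 the exposure median was -0.11 under normexp, with 1 gene called (Oxtr), and -0.11 without both GEN samples numbered 3. Between GD4.5 and GD5.5 in GEN 7 contractile genes were called under normexp, 0 with only the arrays compared and 5 without both samples numbered 3, and the change of Oxtr turned to 0.95 under normexp. Under normexp the 5th percentile of intensity on the first 3 GD5.5 GEN arrays was -2.08 to -1.52, the median of all genes at GD5.5 moved by 0.27, and 9342 genes were called between exposures there, so this setting says little about dim genes. That percentile was also raised on the third GD3.5 CON array, at -2.49 against -5.01 to -3.64 on the other GD3.5 arrays. The same limit therefore applies at GD3.5. The cause of the other changes was not tested.

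Without single arrays, the exposure medians of the contractile genes were 0.049 to 0.39 at GD1.5, 0.27 to 0.41 at GD3.5, -0.34 to -0.14 at GD4.5 and -0.11 to 0.26 at GD5.5. At GD3.5 0 to 1 contractile genes were called (0 without the GEN sample numbered 3). From GD1.5 to GD3.5 in GEN it was 0 to 1 (0 without the GD3.5 GEN sample 3 or 4). Between GD4.5 and GD5.5 it was 6 to 9 in CON and 1 to 7 in GEN, with 7 without the GD5.5 GEN sample 3 and 3 without the GD4.5 GEN sample 2.

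Over all genes, the called counts moved by more than 1.5 times in several settings. Between exposures 20 genes were called at GD1.5 against 1 to 13 under 5 settings, 26 at GD3.5 against 7 to 17 under 4, 26 at GD4.5 against 7 to 97 under 5, and 0 at GD5.5 against 1 to 9342 under 6. Between days it was 523 against 121 and 255 (GD3.5 minus GD1.5, CON), 1039 against 544 and 1655 (GEN), and 4692 against 0, 1103 and 11622 (GD5.5 minus GD4.5, GEN). Oxtr, close to background, is the gene for which signal limits the reading most.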
